A study of Drosophila melanogaster with 3 samples.

Results

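Msp300 and klar are the genes of Drosophila melanogaster described here, 2 of the 6502 genes that held called Aubergine (Aub) intervals. Their members are all deposited intervals that carry the gene ID FBgn0261836 (Msp300, chromosome arm 2L) or FBgn0001316 (klar, 3L). These came to 163 of 51962 intervals, 116 in Msp300 and 47 in klar. The pairing of both IDs with symbols came with the choice of these genes, which were selected on their called intervals in these same libraries. Their numbers of intervals and the recurrence of their positions are therefore given as descriptions, without a test.

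Both genes encode proteins of the outer nuclear membrane with a C-terminal KASH domain. KASH proteins bind SUN proteins of the inner membrane across the space between the membranes, and the bridge (the LINC complex) ties the nucleus to the cytoskeleton. Msp300 is a giant nesprin with spectrin repeats and an actin-binding N terminus, known for holding nuclei in place in muscle. Klar (Klarsicht) is known for nuclear migration in photoreceptors and for the transport of lipid droplets along microtubules in the embryo. Both genes also make isoforms without the KASH domain. Aub belongs to the Piwi family of Argonaute proteins, is loaded with piRNAs, silences transposons in the germ line and also contacts messenger RNAs there.

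The 3 libraries were iCLIP, a method that fixes a protein to RNA with ultraviolet light and sequences the RNA attached to it. All came from cultured germline stem cells that carried UASp-GFP-aub/+ together with bam∆86hs-bam opposite nos-gal4 bam∆86. No drug was given, and the libraries form 1 group of 3 replicates. In these cells the differentiation gene bam is mutant and a heat-shock bam transgene is present. GFP-Aub is expressed through the germline driver nos-gal4, so the tagged protein may not be at its native level. The labels name no separate cultures, so the spread between libraries may be technical. A control library was not analysed here. The libraries held 4007, 36157 and 11798 intervals in replicates 1, 2 and 3. Each interval has a position, a strand and a gene, but the score is 0 throughout, so height and depth in reads are unknown. The number of intervals in a gene cannot separate contact with Aub from the abundance or length of its RNA. Markers of the germ line could not be matched to gene IDs, so the cell type was not checked against them.

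Msp300 was among the genes with most intervals in every library. Replicates 1, 2 and 3 had 21, 70 and 25 intervals in it. The median gene with any interval held 2, 3 and 2 in these libraries. By number of intervals Msp300 ranked 3 of 1459 genes in replicate 1 (3 genes tied), 5 of 6364 in replicate 2 (2 tied) and 13 of 3310 in replicate 3 (4 tied). It took 0.524% of the intervals of replicate 1 (95% Wilson interval 0.343 to 0.800). The share was 0.194% for replicate 2 (0.153 to 0.245) and 0.212% for replicate 3 (0.144 to 0.313). Replicate 1 stood above the other libraries, whose shares lay close together. The mean share was 0.310% ± 0.186 (SD, n = 3), and 0.203% without replicate 1. Wilson intervals cover only counting error and take called intervals to be independent.

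klar held fewer intervals, 8, 28 and 11 in replicates 1, 2 and 3. It ranked 49, 120 and 139 among the genes of these libraries, with 13, 13 and 27 genes tied. Its share was 0.200% (95% Wilson interval 0.101 to 0.393), 0.0774% (0.0536 to 0.112) and 0.0932% (0.0521 to 0.167) of the libraries, with a mean of 0.123% ± 0.066 (SD, n = 3). Replicate 1 was again the highest. Msp300 thus held 2.63, 2.50 and 2.27 times the intervals of klar in replicates 1, 2 and 3, with a mean ratio of 2.47 ± 0.18 (SD, n = 3). The order of the genes was the same in all 3 libraries, and the ratio varied much less than either share. The total of the library cancels in the ratio but not in the shares. Counting error of the ratio, with only 8 to 28 intervals in klar, was not estimated.

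**Figure D1:**
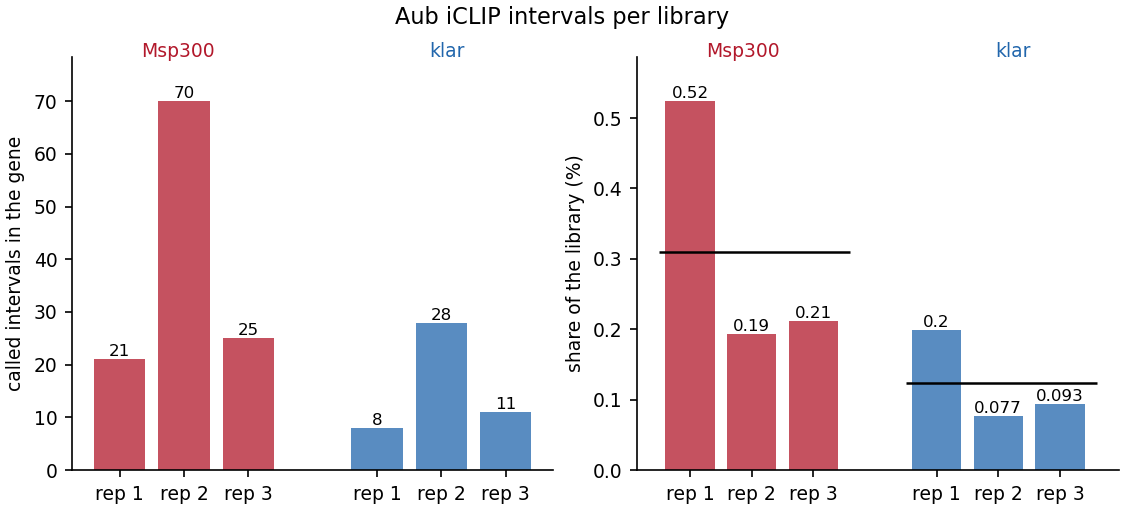
Called intervals (left) and share of all intervals of the library in percent (right) in Msp300 and klar, 1 bar per replicate, with the mean over 3 libraries as a black line on the right. Msp300 lies above klar in every library, with 21, 70 and 25 against 8, 28 and 11 intervals.

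The genes whose numbers of intervals were most like theirs were found by the summed difference over the 3 libraries in log2 of intervals per 1000000 plus 100. For Msp300 these were FBgn0263865 on X, with 21, 66 and 35 intervals (summed difference 0.55), and FBgn0000479 on X, with 23, 67 and 18 (0.64). For klar they were FBgn0015609 on 2L, with 8, 27 and 12 intervals (0.16), and FBgn0000964 on 2L, with 7, 25 and 11 (0.33). The reference table gives no symbol for these 4 IDs. These neighbours differ from Msp300 and klar by at most 10 intervals in any library, so the order among them was not resolved.

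The intervals of Msp300 were spread along nearly the whole called span. All lay on the plus strand between positions 5108634 and 5207002 of 2L (dm3, per the submitters' notes), a span of 98.4 kb from the first to the last called base. The longest stretch without an interval from any of the 3 libraries was 14.7 kb, or 14.9% of the span. Joined over gaps of up to 1000 nt, the 116 intervals formed 23 blocks. Of these blocks, 5 held intervals of all 3 libraries, 7 of exactly 2 and 11 of a single library, and 8 consisted of 1 interval. The 3′ block held most intervals, and the 5′ block came next through replicate 2. The 5′ block (5108634 to 5110772) held 2, 15 and 2 intervals in replicates 1, 2 and 3, and the 3′ block (5205388 to 5207002) held 5, 18 and 7. In replicates 1 and 3 other blocks held as many as the 5′ block or more. The remaining 67 intervals were scattered over 21 blocks in between.

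The intervals of klar lay in a few short clusters. They were on the minus strand between positions 434155 and 540567 of 3L, a span of 106 kb, so that the 5′ end of the RNA is at the higher coordinate. The same joining gave 4 blocks, of which 3 held intervals of all 3 libraries. The 5′ block (539972 to 540567, 596 nt) held 5, 16 and 6 intervals in replicates 1, 2 and 3. The middle block (490179 to 490773, 595 nt) held 2, 6 and 4. The 3′ block (434155 to 434828, 674 nt) held 1, 5 and 1. These 3 blocks cover 1865 nt in all and contained 46 of the 47 intervals, and the other was 1 interval of replicate 2 from 447768 to 447788. Stretches of 49.2 and 42.4 kb without an interval from any of the 3 libraries made up 86.1% of the span.

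**Figure D2:**
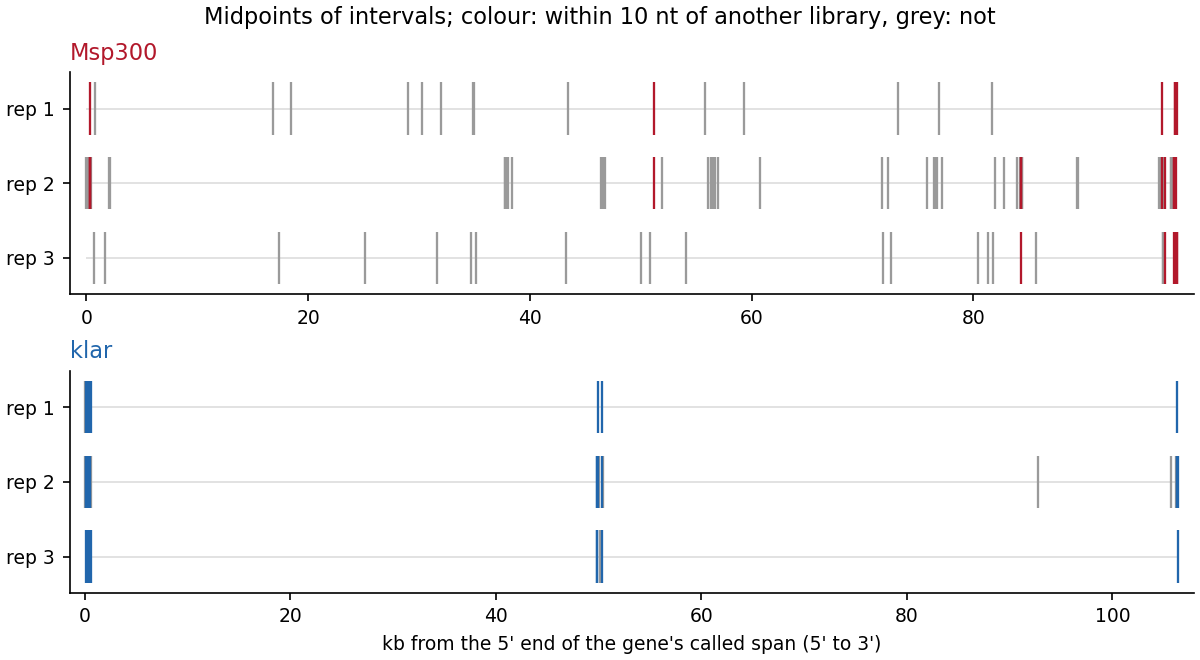
Midpoints of all called intervals along Msp300 (top) and klar (bottom), in kb from the 5′ end of the called span, 1 row per replicate, coloured where an interval of another library lay within 10 nt and grey where none did. Msp300 shows mostly grey marks along the span, and klar shows marks of each library in 3 clusters. Of the 28 replicate 2 intervals of klar, 15 are grey, and 1 of these lies outside the clusters.

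The 5′ end was the most filled part of klar and the 3′ end that of Msp300. The 5′-most 20% of the span held 17.5% ± 4.9 of the intervals of Msp300 and 58.1% ± 4.1 of those of klar, as means over libraries (SD, n = 3). The 3′-most 20% held 38.9% ± 9.8 for Msp300, with 28.6%, 40.0% and 48.0% in replicates 1, 2 and 3. It held 14.3% ± 6.4 for klar, with 12.5%, 21.4% and 9.09%. In klar the second and the fourth parts of the span, counted from the 5′ end, were empty in every library, and the part between them held 27.6% ± 7.8. In Msp300 the 3 inner parts held 16.1% ± 7.6, 16.3% ± 2.2 and 11.2% ± 3.1. In klar the 5′ end led in each library, and the middle and the 3′ end held 6 intervals each in replicate 2. The span is that of the called intervals and not of an annotated transcript. Exons, introns and untranslated regions of the build used, and the sequence under the intervals, were not analysed here.

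When intervals of the smaller library of a pair were sought in the larger, those of Msp300 recurred below the share of all genes and those of klar above it. An interval was counted as recurring when an interval of the same gene in the other library lay within 10 nt. Of the 21 replicate 1 intervals in Msp300, 7 recurred in replicate 2 (33.3%, 95% Wilson interval 17.2 to 54.6), against 59.5% of all replicate 1 intervals. In replicate 3, 3 of the 21 recurred (14.3%, 4.98 to 34.6), against 32.5% of all. Of the 25 replicate 3 intervals in Msp300, 6 recurred in replicate 2 (24.0%, 11.5 to 43.4), against 46.3% of all. In this direction Msp300 was below the share of all genes in each pair. Its mean was 23.9% ± 9.5 (SD over 3 pairs that share libraries), and 14.3% without replicate 2, where a single pair is left.

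klar lay above the share of all genes in each pair. Of its 8 replicate 1 intervals, 7 recurred in replicate 2 (87.5%, 95% Wilson interval 52.9 to 97.8) and 5 in replicate 3 (62.5%, 30.6 to 86.3). Of its 11 replicate 3 intervals, 10 recurred in replicate 2 (90.9%, 62.3 to 98.4). The shares of all genes in these pairs were 59.5%, 32.5% and 46.3%. The Wilson intervals of both replicate 1 searches held the share of all genes, and that of the replicate 3 search lay above it. In that search 3 of the 10 recurring intervals met the same replicate 2 interval, so they were not independent, and the Wilson interval is no test. The mean over pairs was 80.3% ± 15.5 in klar, against 46.1% ± 13.5 over the intervals of all genes other than Msp300 and klar. In the 5′ block of klar most positions lay within 10 nt of a replicate 2 interval. Recurrence in replicate 2 there therefore says little about exact position. With 8 and 11 intervals in the smaller libraries, each interval of klar moved these shares by 12.5 or 9.09 percentage points. No test of the difference from other genes was made, because the genes were selected on these intervals.

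When intervals of the larger library were sought in the smaller, klar was again above the share of all genes, but Msp300 was not below it throughout. In Msp300, 7 of 70 replicate 2 intervals recurred in replicate 1 (10%, 95% Wilson interval 4.93 to 19.2), against 7.41% of all. Of its 25 replicate 3 intervals, 4 recurred in replicate 1 (16.0%, 6.40 to 34.7), against 11.7% of all. Of its 70 replicate 2 intervals, 6 recurred in replicate 3 (8.57%, 3.99 to 17.5), against 16.6% of all. Msp300 was thus higher than all genes in the searches of replicate 1 and lower in the search of replicate 3. Each of these Wilson intervals held the share of all genes. In klar the same searches gave 28.6%, 63.6% and 35.7%.

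**Figure D3:**
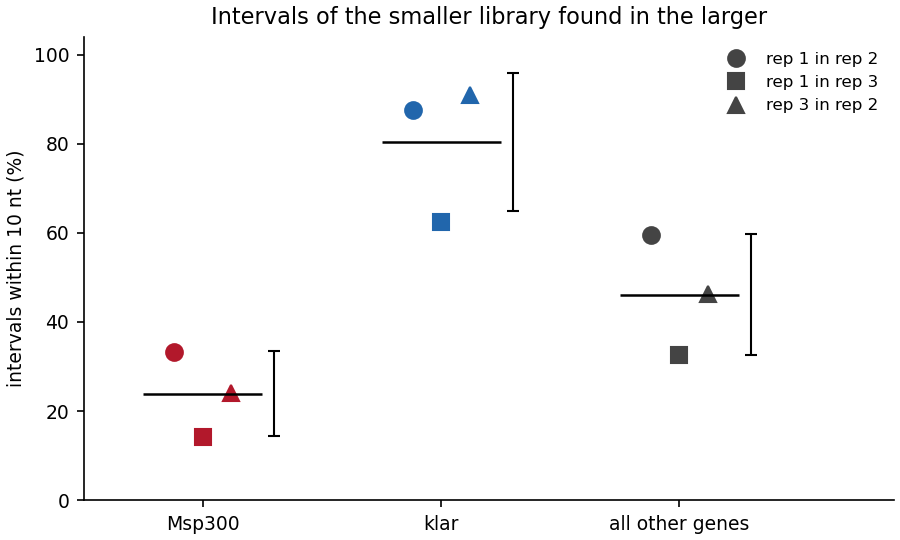
Percentage of intervals of the smaller library that lay within 10 nt of an interval of the same gene in the larger library, for Msp300, klar and all other genes. Symbols are the 3 pairs of libraries, lines their mean and bars the SD. In each pair Msp300 lies lowest and klar highest.

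Counted against both other libraries together, 24 of the 116 intervals of Msp300 recurred (20.7%) and 30 of the 47 of klar (63.8%). By library, 7, 11 and 6 intervals of Msp300 recurred in replicates 1, 2 and 3 (33.3%, 15.7% and 24.0%), against 62.5%, 20.5% and 47.4% of all intervals. In klar 7, 13 and 10 recurred (87.5%, 46.4% and 90.9%). In both genes, as over all genes, replicate 2 had the lowest share.

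Within Msp300 the recurring intervals were concentrated at the 3′ end. The 3′ block held 15 of the 24, namely 5 of its 5 replicate 1 intervals, 5 of its 18 replicate 2 intervals and 5 of its 7 replicate 3 intervals. Of these 15, 11 were in the last stretch of the block, 5206702 to 5207002. Every position of that stretch was within 10 nt of a replicate 2 interval, 1 of which was 220 nt wide. Any replicate 1 or 3 interval called there had to recur, so the concentration says little about exact position. In the 5′ block 4 of 19 recurred. Between the end blocks 5 of 67 recurred (7.46%), with 1 of 14, 3 of 37 and 1 of 16 in replicates 1, 2 and 3. All 3 libraries thus showed low recurrence in the interior. In klar no part stood out in this way, since 16 of 27 recurred in the 5′ block, 9 of 12 in the middle block and 5 of 7 in the 3′ block.

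Only 1 region of Msp300 held intervals of all 3 libraries when intervals within 10 nt were joined, of 85 regions in the gene (1.18%, against 3.17% of the regions of all genes). It lay at the very 3′ end of the called span, from 5206702 to 5207002 of 2L, and held 4, 3 and 4 intervals in replicates 1, 2 and 3. The widest of the 3 replicate 2 intervals there had 220 nt, from 5206783 to 5207002. This was second in width among the 36157 intervals of that library, whose widest had 285 nt. The 4 intervals of replicate 1 ran from 5206767 to 5206791, 5206838 to 5206862, 5206894 to 5206925 and 5206954 to 5206980. Those of replicate 3 included 5206901 to 5206938, 5206963 to 5206987 and 5206990 to 5207002. Replicates 2 and 3 ended at the same last base. That base is also the gene end in the RefSeq table of the Release 6 assembly. Whether the shared edge comes from that boundary was not tested.

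A further 5 regions of Msp300 joined exactly 2 libraries. Replicates 1 and 2 met in the 5′ block (5108946 to 5109018), in the middle of the span (5159817 to 5159841) and in the 3′ block (5205533 to 5205637). Replicates 2 and 3 met at 5192900 to 5192927 and in the 3′ block at 5205890 to 5205929. The replicate 2 interval at 5159817 was 1 nt wide, and those at 5192900 to 5192927 were 3 and 2 nt wide. The other 79 regions came from 1 library, 14 from replicate 1, 47 from replicate 2 and 18 from replicate 3. The count of common regions was 4, 3 and 4 without replicates 1, 2 and 3. Without replicate 2, all 3 lay between 5206702 and 5207002. Intervals of replicate 2 joined these into the 1 region common to all 3 libraries, so the count also depended on joining.

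klar had 5 regions common to the 3 libraries among 21 (23.8%). By this number it ranked 7 among the 6502 genes, with ties, of which 698 had at least 1 and none more than 9. Msp300 shared rank 246 with every other gene that had a single common region. Of the 5 in klar, 4 lay in its 5′ block, where most positions were within 10 nt of a replicate 2 interval. From the 5′ end, the first (540430 to 540469) held 1, 2 and 1 intervals in replicates 1, 2 and 3 and the second (540346 to 540418) also 1, 2 and 1. The third (540187 to 540261) held 1, 1 and 3, where replicate 1 had a single interval from 540190 to 540246 and replicate 2 a single interval from 540187 to 540260. The fourth (540001 to 540085) held 1, 3 and 1, with the widest interval of replicate 2 at 540001 to 540063, replicate 1 at 540009 to 540041 and replicate 3 at 540017 to 540041. The fifth lay in the middle block (490265 to 490295), with 490284 to 490293, 490266 to 490295 and 490265 to 490289 in the 3 libraries. The count was 8 without replicate 1, and 5 and 7 without replicates 2 and 3.

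**Figure D4:**
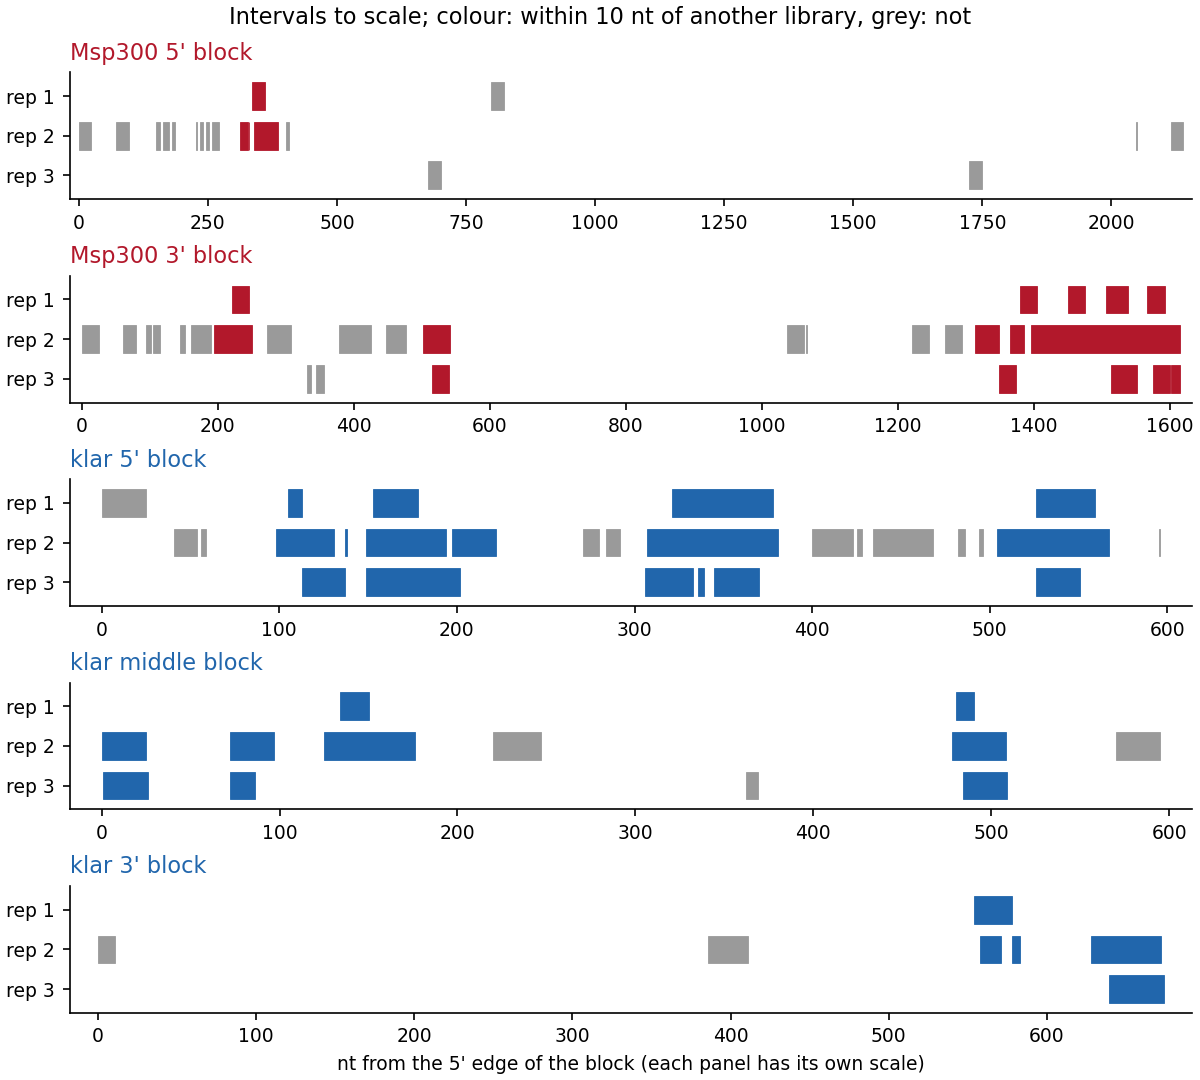
Intervals drawn to scale in the outermost blocks of Msp300 and the 3 clusters of klar, in nt from the 5′ edge of each block, 1 row per replicate, coloured where another library had an interval within 10 nt and grey where none did. The common region of Msp300 is at the right end of its 3′ block and includes the 220 nt interval of replicate 2, and 4 of the 5 common regions of klar are in its 5′ block.

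In the 3′ block of klar the smaller libraries marked different places. Replicate 1 had its interval at 434251 to 434274 and replicate 3 at 434155 to 434189, and each met an interval of replicate 2. No position there was common to all 3 libraries.

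Exact coincidence of 5′ edges was seen in a few cases. The 5′ edge of an interval was the same to the nucleotide in 1 case in Msp300, at 5159817 in replicates 1 and 2, where the replicate 2 interval was 1 nt wide. In klar it was the same in 3 cases, at 540041 in replicates 1 and 3 and at 540418 and 490701 in replicates 2 and 3. Such edges belong to called intervals rather than reads and need not mark crosslinked nucleotides.

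The interior of Msp300 also differed between libraries in where intervals were called at all. From 5110773 to 5146386, a stretch of 35.6 kb, replicate 2 had no interval, although it is the library with most intervals. The stretch was picked as the longest gap of replicate 2 in the gene. In it replicate 1 had 7 and replicate 3 had 5, between 5125423 and 5143749. These 12 could recur only between replicates 1 and 3, and none did. Conversely, the blocks at 5146387 to 5147007 and 5155026 to 5155429 held 6 and 4 intervals, all of replicate 2. Over the gene, 19 of the 46 intervals of replicates 1 and 3 (41.3%) had no replicate 2 interval of Msp300 within 1 kb, against 15.1% of such intervals over all genes. The 12 intervals of the 35.6 kb stretch are among these 19, so the 2 observations are not separate. The count was 9 of 21 in replicate 1 and 10 of 25 in replicate 3. In klar it was 0 of 19.

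The intervals of Msp300 in the smaller libraries were mostly of 1 width. In replicates 1 and 3 together, 37 of the 46 Msp300 intervals (80.4%) were exactly 25 nt wide, against 6 of 19 in klar (31.6%) and 48.6% in all other genes. Of the 30 intervals of these libraries between the end blocks of Msp300, 27 were 25 nt wide. In replicate 2 the median width was 12 nt in Msp300 and 24 nt in klar, against 13 nt over the whole library. In the rest of the series, 39.9% of the 25 nt intervals of replicates 1 and 3 recurred, and 61.9% of those of other widths. In Msp300 the corresponding counts were 9 of 37 and 4 of 9, and in klar 5 of 6 and 12 of 13. At 25 nt, recurrence was 24.3% in Msp300, below the 39.9% of other genes, and 83.3% in klar. The part of width in the difference between the genes was not tested further.

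Both genes were next placed among genes of similar extent. A called span of at least 50 kb and at least 20 intervals in all were found in 107 genes, these minimums being chosen after the data had been seen. Msp300 had the second-highest number of intervals of the 107 and ranked 99 by the share that recurred (20.7%). klar ranked 30 by number, with ties, and 10 by the share that recurred (63.8%). The other 105 genes had a median of 44.8%, with a middle range (quartiles) of 35.7% to 55.3% and extremes of 0% and 80.0%. Both genes were outside the quartiles, on opposite sides, and inside the extremes. FBgn0263865 and FBgn0000479, the genes most like Msp300 in number, had 61.5% and 44.4% recurring.

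Msp300 formed more blocks than any other of the 107 genes, 23 against at most 19 and a median of 5 in the other 105. It also had the second-highest number of intervals, and per 10 intervals its 1.98 blocks ranked 28. klar formed 4 blocks, or 0.851 per 10 intervals, which equals the lower quartile of the other genes. By intervals of replicates 1 and 3 far from any of replicate 2, Msp300 ranked 4 with 41.3%, against a median of 9.09% in the other genes. By the share of intervals in the 3′-most 20% of the span, pooled over libraries, Msp300 (39.7%) was near the median of the others (39.6%), and klar (17.0%) ranked 99. By the share in the 5′-most 20%, klar (57.4%) lay inside the quartiles of the others (25.9% to 59.1%) and ranked 31, and Msp300 (19.0%) lay below them and ranked 89.

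**Figure D5:**
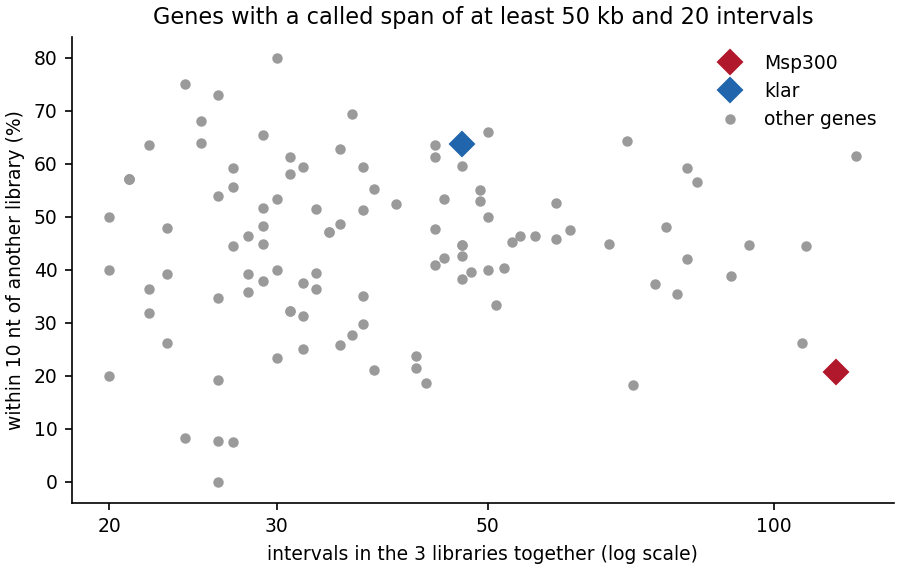
Share of intervals within 10 nt of another library against the number of intervals in the 3 libraries together (log scale), for the 107 genes with a called span of at least 50 kb and at least 20 intervals, 1 point per gene. Msp300 lies at 116 intervals and 20.7%, klar at 47 intervals and 63.8%.

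No interval assigned to another gene fell within the span of either gene on either strand. The RefSeq table of the Release 6 assembly places 4 noncoding genes inside Msp300 and 7 genes inside klar, 3 of them protein-coding. Whether the authors' annotation held these genes is not known, so the absence cannot be read as a result about them. Other genes of nuclear positioning were sought in the same table, among them those of SUN proteins, lamins, spectrins, dynein and kinesin. None of the 13 nuclear envelope, 6 cytoskeletal linker and 9 motor genes listed could be paired with a gene ID, so they are not described here.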

How the data were processed

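The authors deposited 1 list of called intervals per library, with 0-based starts, converted here to 1-based positions. The submitters' processing notes name TopHat2 2.0.13, CASAVA 1.4 and build dm3. Not given in the sources used here are the interval caller, its threshold, the annotation and whether the 5-nt random barcode was used against PCR duplicates. The score deposited by the authors is 0 in every row and was not used. A RefSeq table of Release 6 listed 31 gene IDs of X, 2R, 3R and 4, and no called span lay inside its bounds there. On 2L 9 of 9 did, and the last called base of Msp300 equals the table's gene end, so positions on 2L do not tell the builds apart. On 3L 3 of 9 did, and the called span of klar also lay inside the table's bounds for that gene. Gene IDs are the authors'. Intervals were called per library.

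Recurrence was computed here within the same gene and strand, with at most 10 nt between edges. Regions were joined within 10 nt and blocks within 1000 nt. Shares have 95% Wilson intervals. Python 3.11.15, numpy 2.4.6, scipy 1.17.1, pandas 2.3.3 and matplotlib 3.10.9 were used. The recurrence search was checked against an exhaustive search on sampled intervals of these libraries. It was also run on copies of such intervals, shifted slightly or moved off the chromosome. Joining was checked on a small made-up example.

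The members, lists and settings were chosen with earlier results of these data known. Named besides the members were the 2 genes most like each in intervals per library, and the 3 common regions per gene with most intervals. The other common regions of klar were named after their values were seen. None of the 45 listed genes matched an ID, including markers of germ line, somatic gonad and muscle.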

Additional observations from a re-analysis of the deposited data

How the results depend on the processing

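Of 71 alternative values for 11 results, 53 moved by less than the spread between libraries or, for counts, by less than 1.5 times. Taken over the chromosome arm, the mean share was 1.88% for Msp300 and 0.708% for klar, a change of denominator. With an exactly equal 5′ edge, recurrence was 1.59% in Msp300 and 10.2% in klar. The 3′-most 10% of the span held 26.8% of Msp300. The 1 kb window with most intervals pooled over libraries held a mean of 10.7% of Msp300, where replicate 2 decided its place, and 58.1% of klar. Chosen by the highest mean share, a setting added after seeing the data, it held 15.0% of Msp300. The pooled choice gave 25.8% of Msp300 at 2 kb and 52.7% of klar at 500 nt. It held 62.5% of klar in covered nucleotides. The ratio of Msp300 to klar was 2.26 in covered nucleotides. Common regions of Msp300 numbered 2 when joined within 50 nt and 6 in at least 2 libraries, and those of klar 10 in at least 2 libraries. Window, joining and library number change these values by construction. Leaving out each library gave 14.3% to 33.3% recurrence in Msp300 and 62.5% to 90.9% in klar, 3 to 4 common regions in Msp300 and 5 to 8 in klar. The 1 kb window of Msp300 then held 14.0% to 17.5%, the window being chosen anew. Msp300 stayed below klar in recurrence under every setting run. No paired analysis was possible because there is a single group. Small numbers of intervals per gene, and unknown read depth, limit all shares.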
